A study of Drosophila melanogaster with 48 samples.

Results

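Zelda (Zld) is the zinc-finger pioneer factor of the early fly embryo. It binds closed chromatin, opens it and lets the zygotic genome be transcribed for the first time. Pioneer factors are defined by this ability to reach sites inside nucleosomes, and other transcription factors then use the opened sites. In cultured S2 cells, a male Drosophila line that resembles hemocytes, the blood cells of insects, zld is normally silent, so that an introduced copy shows what the factor can open outside the embryo.

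The regions described here are those of the Zld copper titration that neither of the other full-length titrations shared. They were chosen from the measured lists themselves: a region of the Zld titration list was kept when it had no overlap, not even of 1 bp, with any region of the Grainyhead (Grh) titration list or of the HA-tagged Twist (HA-Twi) titration list. This left 3005 of 27064 Zld titration regions (11.1%), called Zld titration-only regions. A further 21365 (78.9%) were in all 3 titration lists, 1336 were shared with the Grh titration alone and 1358 with the HA-Twi titration alone. All 10 lists of the series hold 355066 regions before any merging.

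The assay was ATAC-seq, which inserts sequencing adapters into open DNA by a transposase, and 48 libraries of S2 cells were made. The S2-Zld cells of the titration carry full-length Zld and received 0, 500, 1000 or 1500 uM CuSO4, which induces the factor. The S2-Grh cells (full-length Grh, a regulator of epidermal genes) received 0, 25, 100 or 400 uM, and the S2-HA-Twi cells (HA-tagged Twi, which directs mesoderm formation) received 0, 10, 40 or 160 uM. Every group has 2 libraries, harvested 48 h after induction. Separate libraries gave the main lists: S2-WT and S2-Zld cells at 1000 uM for Zld, S2-WT and S2-Grh at 100 uM for Grh, and S2-WT and S2-Twi at 40 uM for Twi. Libraries of S2-WT and S2-Grh-DBD cells at 20 uM and of S2-WT and S2-Zld-DBD cells at 100 uM gave the main lists of the DNA-binding domain (DBD) of Grh and of Zld, the part of the protein that contacts DNA. S2-Grh-DBD cells at 80 uM and S2-Zld-DBD cells at 400 uM were also sampled in a titration. All cells are of the S2 line.

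Per the labels, each main list and each full-length titration list covers several libraries together, so the Zld titration list also covers cells without copper. No library is tied to the DBD titration lists by the labels. No value per library, per replicate or per dose can be given, the depth is unknown, and regions are not replicates: a p-value here says how lists differ, and nothing of the spread between cultures. Each titration list ends in cells at a different top dose, and all cells at 500 uM and above carry Zld or belong to the Zld main list, so Zld and high copper cannot be told apart. The Zld main list includes wild-type cells at 1000 uM, so a region found there may be open without the factor. The lists held between 25397 (HA-Twi titration) and 71754 regions (Twi main). Hemocyte genes lay nearest to a Zld titration region for 18 of 22 genes and neuronal genes for 14 of 15, against 63.7% of all 13946 protein-coding genes, so peak positions alone do not set the cell type apart.

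The Zld titration-only regions were weak and narrow. Their fold enrichment over background, as the authors' peak caller gave it, had a median of 2.05 (interquartile range 1.78 to 2.42, highest 9.38), against a median of 5.87 for regions in all 3 titration lists. Their median width was 94 bp against 189 bp, and 376 of them (12.5%) held more than 1 summit against 24.9%. A fold enrichment of at least 3 was reached by 291 Zld titration-only regions (9.68%) and by 82.6% of the regions in all 3 lists. Grh titration-only regions, chosen in the same way from their own list, numbered 6262 with a median of 2.70, and HA-Twi titration-only regions numbered 1292 with a median of 2.27. At the edge of the rule, 2 Zld titration-only regions had a Grh or HA-Twi titration region within 10 bp (fold enrichments 1.66 and 1.84), and 12 Zld titration regions were left out on an overlap of 10 bp or less (median 2.00, 1.49 to 2.95). These values come from the list that chose the regions and were not tested.

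The gene of the expressed factor held a run of 4 Zld titration-only regions inside zld on the X chromosome, spanning 4662 bp at chrX:19777631-19782292 (dm6). The widest was 3058 bp with 16 summits and a fold enrichment of 7.18 (chrX:19779235-19782292), and it was the widest of all Zld titration regions. The other members of the run had fold enrichments of 1.98, 1.64 and 2.08. All 4 overlapped a single region of 4764 bp in the Zld main list, and 3 of them overlapped the region of 1125 bp in the Zld DBD list. The regions of the Zld DBD titration (1183 bp) and of the Zld DBD list lay between 11329 and 12511 bp from the lower-coordinate end of the gene, inside the run of the full-length titration, which reached from 11166 to 15827 bp. None of the 6 lists of Grh or Twi held a region there, and the Grh titration held regions of 237 and 89 bp elsewhere in the gene. Reads from the introduced copy and from the chromosomal gene cannot be told apart in a peak list. Without the regions in or nearest to zld, grh and twi, 2999 Zld titration-only regions remained.

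**Figure D1:**
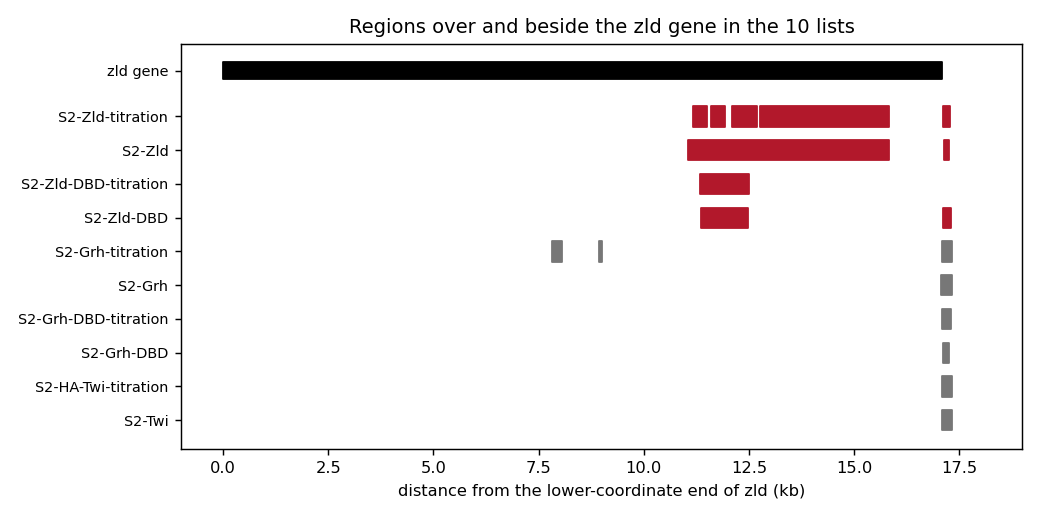
Regions of the 10 lists over and beside the zld gene (black bar), drawn to scale as distance in kb from its lower-coordinate end, with lists of Zld and of its DBD in red and the others in grey. The run of 4 Zld titration-only regions between 11166 and 15827 bp faces 1 region of 4764 bp in the Zld main list and a shorter region in both Zld DBD lists, while every list but that of the Zld DBD titration has a region at the upper-coordinate end.

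The strongest Zld titration-only region lay inside Samuel, nearest to an end of CG14913 (chr2L:11023342-11024111), with a fold enrichment of 9.38. Regions overlapping it had 6.03 in the Zld main list, 1.97 in the Grh main list, 1.61 in the Twi main list and 1.75 in the Grh DBD list. Here and below, a value in another list is the highest fold enrichment among its regions that overlap by at least 1 bp. It belongs to the strongest summit of that region, which may lie outside the Zld titration-only region. Next came a region outside genes beside CG43131 (chr3R:5109672-5110328), with 8.94 in the titration, 4.98 in the Zld main list and 1.38 in the Twi main list. A region inside CG43658 (chrX:17481066-17481525) followed at 7.61. Fold enrichments of different lists depend on each list's background and are set side by side without a test.

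The copper and zinc enzyme family of superoxide dismutases was represented by Sod3, the extracellular form. A region inside Sod3 (chr2R:11382654-11383176) had a fold enrichment of 7.25 in the titration, 5.71 in the Zld main list, 2.06 in the Grh main list and 1.90 in the Twi main list. It was in no DBD list. A region inside cnc, the fly Nrf2 factor of the oxidative stress response, lay nearest to an end of the mitofusin gene fzo (chr3R:23212176-23212310) and had 6.00. Its values were 4.64 in the Zld main list, 1.99 in the Grh main list, 1.80 in the Zld DBD list and 1.91 in the Grh DBD list.

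Others of the 20 strongest regions lay in genes of cell structure and signalling. The region inside baz, the Par-3 polarity protein gene (chrX:17162183-17162599), had 6.79 and, of the other 7 lists, was in the Zld main list alone (4.45). A region inside comt, which encodes the vesicle fusion ATPase NSF, had 7.16, with 7.11 in the Zld main list and 3.17 in the Grh main list. One inside Fur1, a furin-type protease gene, had 6.84, with 4.03 and 1.88. The region inside Tet, the fly member of the TET dioxygenase family, was 1306 bp wide with 8 summits and had 6.00. Beside the muscle homeobox gene lms, 109 bp from its end, a region had 5.84 in the titration, 3.73 in the Zld main list and 2.62 in the Twi main list. The Frizzled receptor gene fz3 held the strongest region that was in none of the other 7 lists (chrX:771146-771310, 5.50).

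The remaining ones of the 20 lay nearest to the complex I gene ND-20L (7.11), CG15059 (6.71), CG3650 (6.08), Mabi (5.97), CG44174 (5.97), CG4218 (5.65), CG44227 (5.61) and CG17684 (5.47). The CG17684 region differed from the others in that its fold enrichment in the Grh main list (9.74) and the Twi main list (8.50) was above that in the Zld main list (4.86). Of the 20 strongest, 19 were in the Zld main list, against 99.8% of all 14923 Zld titration regions with a fold enrichment of at least 4.

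The main lists come from libraries that did not enter the choice of regions. The rule still asked for presence in the Zld titration list and absence from those of Grh and HA-Twi. A higher share in the Zld main list than in the other main lists was thus favoured in advance. Of the 3005 Zld titration-only regions, 1769 (58.9%, exact binomial 95% interval 57.1 to 60.6) were found in the Zld main list, 1298 (43.2%, 41.4 to 45.0) in the Grh main list and 2060 (68.6%, 66.9 to 70.2) in the Twi main list. The same shares of all Zld titration regions were 91.8%, 85.6% and 91.5%, so each stood below its background. All intervals cover counting error over regions only. The Zld main list held more of the regions than the Grh main list (819 regions in the first alone, 348 in the second alone), a difference that passed an exact McNemar test over regions (two-sided, adjusted p = 1.17e-43 over 4 tests). Against the Twi main list the direction was opposite (405 against 696 regions, exact adjusted p = 2.96e-18). A higher share in the Zld than in the Grh main list was not particular to this set. HA-Twi titration-only regions had 50.1% and 37.7%, while Grh titration-only regions had 18.7% and 42.3%. These pairs of shares were not tested.

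The Twi main list is longer than the Zld main list, at 71754 against 33943 regions, and this comparison turned with the length of the lists. With the 25397 regions of highest −log10 q from every list, 41.4% of 2469 Zld titration-only regions were in the Zld main list, with 22.2% for the Grh and 28.7% for the Twi main list (exact adjusted p = 2.1e-65 and 4.13e-28). With a −log10 q of at least 10 in every list, the shares of 1305 regions were 51.4% for Zld, 17.1% for Grh and 49.5% for Twi, and the difference from Twi no longer passed (exact adjusted p = 0.506). In both settings, here and below, the lists were cut first and the rule was then applied again. The sets can thus hold regions outside the 3005 that overlap a weaker Grh or HA-Twi titration region. Of the 3005, only 674 had a −log10 q of at least 10.

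Strong regions were recovered in the Zld main list more often than weak ones. Of 1374 regions with a fold enrichment under 2, 46.4% were in the Zld main list, 39.8% in the Grh main list and 66.2% in the Twi main list. Of 215 regions from 3 to 4 the shares were 87.4%, 52.1% and 73.0%. Of the 76 regions at 4 or above, 74 (97.4%) were in the Zld main list, 41 (53.9%) in the Grh main list and 51 (67.1%) in the Twi main list, and the Zld share was higher in both comparisons by the exact McNemar test (adjusted p = 8.38e-09 and 3.1e-06). This threshold was chosen after the values were seen. Recovery went up with strength in the regions of all 3 titration lists too, with 79.1% in the Zld main list under 2 and 97.7% from 3 to 4. Of all 14923 Zld titration regions at 4 or above, 99.8% were in the Zld main list, 98.7% in the Grh main list and 99.0% in the Twi main list. The 97.4% of strong Zld titration-only regions was therefore close to that background, and the Grh and Twi shares lay below it. Most of these 76 regions were thus also called in the Grh main list, and most in the Twi main list.

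**Figure D2:**
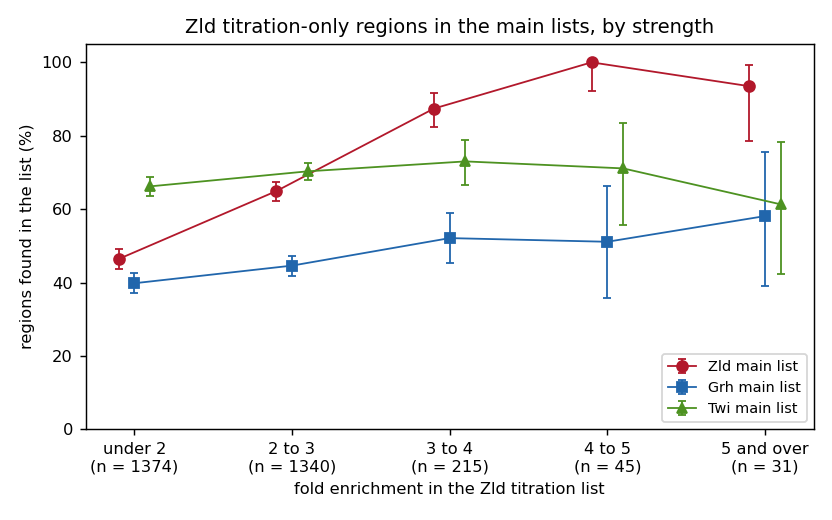
Share of Zld titration-only regions found in the Zld, Grh and Twi main lists (y axis, %) by fold enrichment in the Zld titration list (x axis), with exact binomial 95% intervals and the number of regions under each class. The Zld share goes from 46.4% under 2 to 100.0% of the 45 regions from 4 to 5, while the Grh share stays between 39.8% and 58.1% and the Twi share between 61.3% and 73.0%.

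Taking the 3 main lists at once, 889 Zld titration-only regions (29.6%) were in all 3 and 507 (16.9%) in none. A total of 344 (11.4%, against 3.21% of all Zld titration regions) were in the Zld main list and in neither of the others, 475 in those of Zld and Twi, 61 in those of Zld and Grh, 381 in that of Twi alone, 315 in those of Grh and Twi and 33 in that of Grh alone. Absence from the Grh and HA-Twi titration lists therefore did not mean absence from the other factors' lists, since 2154 regions (71.7%) were in the Grh or the Twi main list. This share was still below its background, because the Twi main list by itself held 91.5% of all Zld titration regions. Of all 7 lists that did not enter the choice, 452 regions (15.0%, median fold enrichment 1.86) were in none and 248 (8.25%, median 2.23) in every one. For these counts and the other combinations of main lists, no share of all Zld titration regions is given here, so they are descriptions only.

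The recovery in the Zld main list was then compared with that of the regions chosen in the same way from the other titrations. The Zld main list held 58.9% of Zld titration-only regions, 18.7% of Grh titration-only regions (17.7 to 19.7) and 50.1% of HA-Twi titration-only regions (47.3 to 52.8). Both differences passed Fisher's exact test over regions (two-sided, adjusted over 4 tests), with an adjusted p of at most 1e-300, the smallest written here, for Grh and 1.53e-07 for HA-Twi. By the rule, both other sets are absent from the Zld titration list, while Zld titration-only regions are in it. A lower share of those sets in another list of Zld cells was thus favoured in advance. The tests cannot separate recovery from this choice. At a fold enrichment of 3 or above the shares were 90.0% of 291, 17.6% of 2626 and 60.2% of 241 regions (exact adjusted p = 1.6e-139 and 5.54e-16). Grh titration-only regions were found less often in other lists too. The Twi main list held 43.4% of them against 68.6% of Zld titration-only regions, and the Grh DBD list 11.2% against 27.6%. Even the Grh main list held 42.3% of them, against 43.2%. The part of this in the difference for the Zld main list was not tested.

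The DBD lists held a smaller share, and that of Zld and that of Grh were close to each other. The Zld DBD list held 939 Zld titration-only regions (31.2%, 29.6 to 32.9) and the Grh DBD list 828 (27.6%, 26.0 to 29.2), against 79.0% and 78.4% of all Zld titration regions. This difference of 3.69 percentage points passed the exact McNemar test (adjusted p = 1.77e-05), but with lists of equal length the direction turned (21.7% against 23.6%, exact adjusted p = 0.036). The Zld DBD list is also the longer, at 34647 against 29997 regions. In the DBD titration lists the shares were 28.6% and 28.4% (exact adjusted p = 0.842), against 79.0% and 78.2% of all Zld titration regions. With lists of equal length, they were 24.3% for the Zld DBD titration and 26.7% for the Grh DBD titration (exact adjusted p = 0.00968). HA-Twi titration-only regions were in the Zld DBD list at 28.6% (26.2 to 31.2), which did not pass against the 31.2% above (Fisher's exact test, adjusted p = 0.0895), and Grh titration-only regions at 13.7% (exact adjusted p = 6.84e-84). Both of these sets are absent from the Zld titration list by the rule, as said above.

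A total of 608 Zld titration-only regions (20.2%) were in both Zld DBD lists, against 74.3% of all Zld titration regions, and 18.6% in both Grh DBD lists, against 73.5%. Of the 608, 117 were in neither Grh DBD list (3.89% of Zld titration-only regions, against 1.61% of all), and swapping the factors gave a set of 79 (2.63% against 1.37%). These counts were not tested. The 10 strongest of the 608 were all in the Grh DBD lists and in all 3 main lists too. They lay nearest to ND-20L, Mabi, CG4218, CG17684, heca (fold enrichment 5.33), the BAG co-chaperone gene stv (5.01, inside the gene), the forkhead factor gene fkh (4.97, 397 bp from its end), the ion channel gene ppk27 (4.88), Pura (4.38) and CG40472 (4.29). Of the 344 regions in the Zld main list and in no other main list, 22 were in a Zld DBD list (0.732% of Zld titration-only regions, against 0.477% of all Zld titration regions) and 17 in a Grh DBD list (0.566% against 0.395%).

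**Figure D3:**
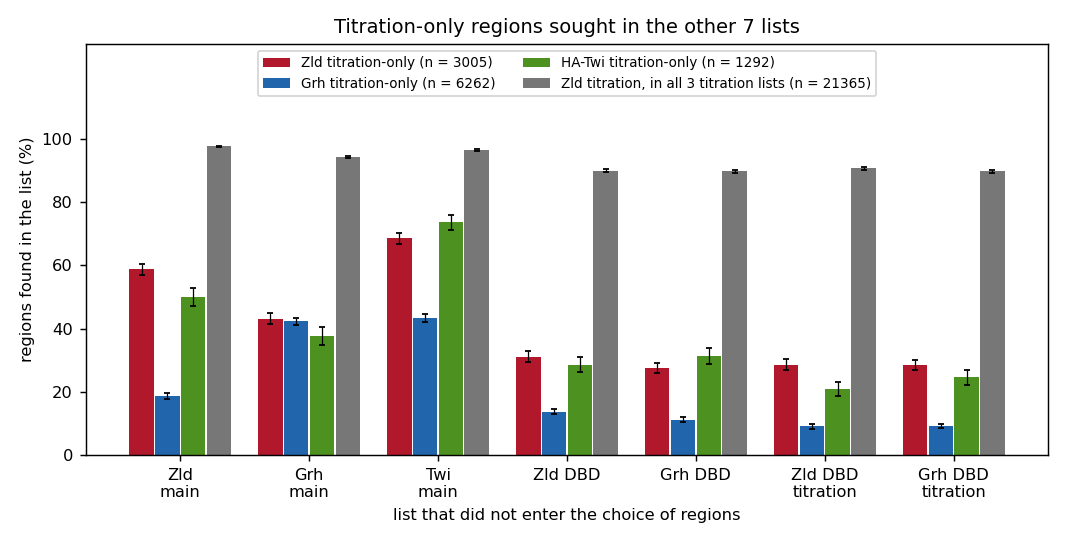
Share of each set of regions (bars, %) found in the 7 lists that did not enter the choice of regions, with exact binomial 95% intervals. Zld titration-only regions (red) stand at 58.9% in the Zld main list and between 27.6% and 31.2% in the DBD lists, Grh titration-only regions (blue) at 18.7% in the Zld main list, and regions of all 3 titration lists (grey) at 89.7% or more in every list.

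The regions lay away from gene ends and mostly inside genes. Of Zld titration-only regions, 792 (26.4%, 24.8 to 28.0) had their summit at most 500 bp from a protein-coding gene's end, against 45.7% (45.1 to 46.4) of regions in all 3 titration lists (Fisher's exact test, adjusted p = 9.45e-93 over 9 tests) and 41.9% of all Zld titration regions. The gene table gives no strand, so promoters and 3' ends count alike. Summits lay inside a gene for 74.4% (72.8 to 76.0), against 65.6% (exact adjusted p = 5.24e-22) and 67.5% of all. Both differences moved with strength: among regions with a fold enrichment under 3, 26.5% of 2714 Zld titration-only regions and 28.0% of 3727 regions of all 3 lists lay near a gene end (exact adjusted p = 0.392), and 76.0% and 77.9% lay inside a gene (exact adjusted p = 0.344).

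Against the other titration-only sets, Zld titration-only regions were nearer to gene ends than those of Grh (26.4% against 18.5%, Fisher's exact adjusted p = 4.15e-17). That difference was as large under a fold enrichment of 3 (26.5% against 18.6%, exact adjusted p = 1e-12), but with 200 bp in place of 500 bp the shares were 8.05% and 8.40% (exact adjusted p = 0.601). Against HA-Twi titration-only regions (25.5%) it did not pass (exact adjusted p = 0.57), and the direction depended on the setting. Zld titration-only regions were lower within 200 bp (8.05% against 11.0%, exact adjusted p = 0.00539) and at a −log10 q of at least 10 (27.9% against 32.1%, exact adjusted p = 0.0274), and higher with lists of equal length (28.6% against 25.6%, exact adjusted p = 0.0312). Zld titration-only regions also lay beside regions of all 3 lists, with a median gap of 920 bp and 51.3% (49.5 to 53.1) within 1000 bp. The matching shares were 31.0% for Grh and 55.3% for HA-Twi titration-only regions and were not tested.

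The strongest Zld titration-only regions were seldom near a gene end. Of the 76 regions with a fold enrichment of at least 4, 8 (10.5%, 4.66 to 19.7) had a summit within 500 bp of a gene end, against 51.2% of the 14708 such regions in all 3 lists (Fisher's exact test, adjusted p = 7.71e-13), 18.8% for Grh titration-only regions (exact adjusted p = 0.147) and 20.9% for HA-Twi titration-only regions (exact adjusted p = 0.147). Their median distance to a gene end was 5128 bp and 24 of them (31.6%) were more than 10 kb away. At the same strength, the median distance was 3275 bp for HA-Twi titration-only regions (29.1% beyond 10 kb), 2909 bp for those of Grh (19.4%) and 471 bp for regions of all 3 lists (9.82%). Only 51.3% (39.6 to 63.0) lay inside a gene, below the 73.3% of Grh (exact adjusted p = 0.000307) and the 70.9% of HA-Twi titration-only regions (exact adjusted p = 0.0446), while the 61.1% of regions in all 3 lists did not differ by the test (exact adjusted p = 0.147). The comparison at this strength was chosen after the values were seen.

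**Figure D4:**
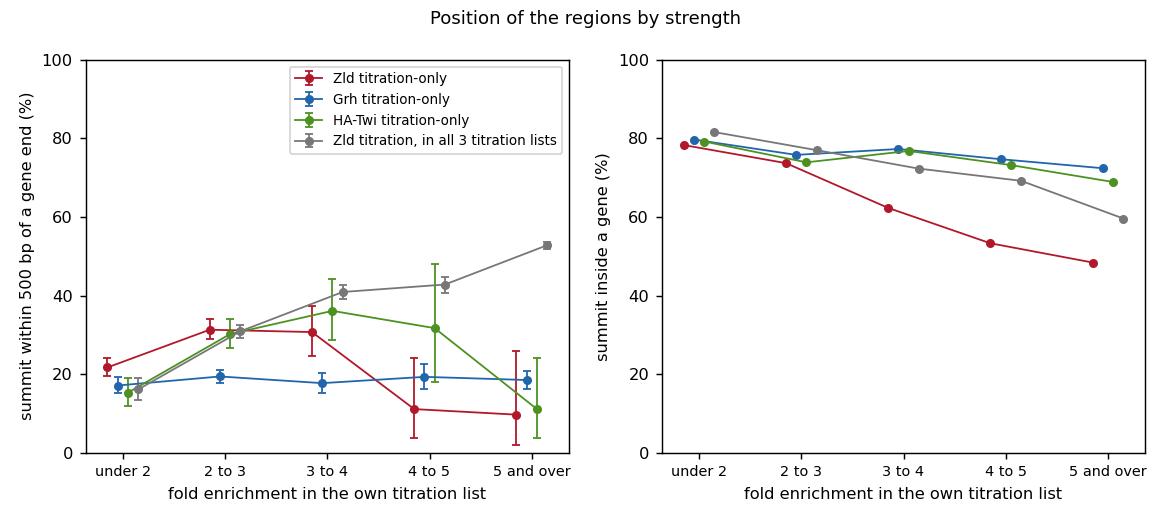
Share of summits within 500 bp of a gene end (left, %, with exact binomial 95% intervals) and inside a gene (right, %, no intervals drawn) by fold enrichment in the region's own titration list, for the 3 titration-only sets and for regions of all 3 titration lists. The red line of Zld titration-only regions meets the grey line from 2 to 3 (31.3% and 30.9% near a gene end) and stands apart from it at 4 to 5 (11.1% against 42.8%).

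The X chromosome held 493 Zld titration-only regions (16.4%, 15.1 to 17.8), below the 18.7% of regions in all 3 lists (Fisher's exact test, adjusted p = 0.00415) and the 18.3% of all Zld titration regions. At a −log10 q of at least 10 the difference from regions of all 3 lists no longer passed (16.6% against 18.8%, exact adjusted p = 0.051). Under a fold enrichment of 3 the shares were 16.1% and 16.6% (exact adjusted p = 0.659). Against the 14.6% of Grh titration-only regions the test passed narrowly (exact adjusted p = 0.047), and it no longer passed without the regions in or nearest to zld, grh and twi (16.3% against 14.6%, exact adjusted p = 0.0685). Within the set the X share followed the main lists. It was 36.3% (31.2 to 41.7) for the 344 regions in the Zld main list alone, 32.8% for the 61 in those of Zld and Grh and 25.2% (21.5 to 29.3) for the 507 in no main list, but 9.11% (7.30 to 11.2) for the 889 in all 3. Presence in the Zld main list made little difference (16.8% of regions found there, 15.8% of those absent), whereas 29.3% (26.4 to 32.3) of the 945 regions absent from the Twi main list and 10.5% (9.20 to 11.9) of the 2060 found in it lay on X.

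The same split appeared in the sets that are not of Zld. Of HA-Twi titration-only regions, 27.1% of those absent from the Twi main list and 14.3% of those found in it lay on X, and of Grh titration-only regions 19.6% and 8.18%. The Twi main list as a whole has 9.70% of its regions on X, the Grh main list 11.8% and the Zld main list 17.5%. A high X share was thus not particular to Zld titration-only regions, and the part that the lists' own X shares have in it was not tested.

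**Figure D5:**
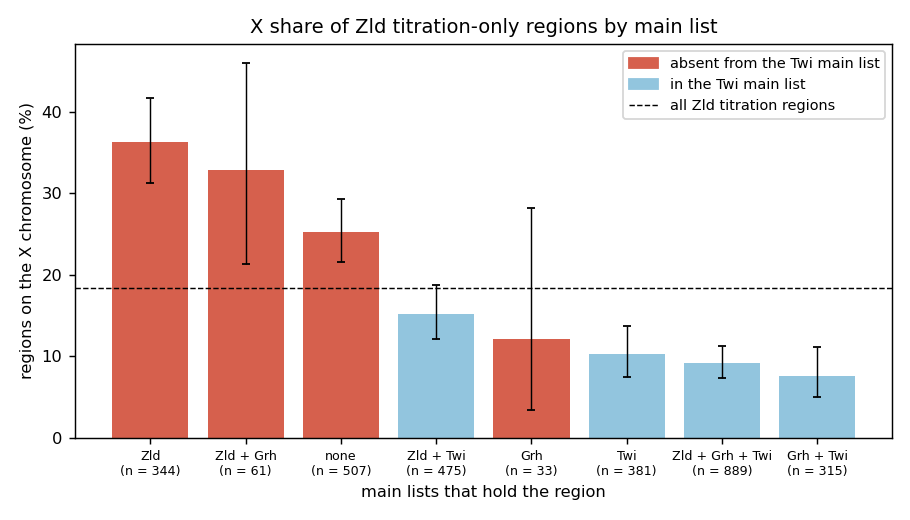
Share of Zld titration-only regions on the X chromosome (bars, %, with exact binomial 95% intervals) by the main lists that hold them, with the 18.3% of all Zld titration regions as a dashed line. Regions absent from the Twi main list (red) stand between 12.1% and 36.3%, the lowest of them on 33 regions, and regions in it (blue) between 7.62% and 15.2%.

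The 3005 regions lay nearest to 2013 of 13946 protein-coding genes (14.4%), and 1494 of these had a single one. For 305 genes no other Zld titration region was nearest. A total of 60 genes (0.430%) were nearest to 5 or more, and these were long, with a median length of 27532 bp against 2161 bp for all protein-coding genes. The highest numbers were at Ten-m, a teneurin transmembrane protein gene (16 of its 41 Zld titration regions), CG31145 (14 of 34), the axon guidance gene Sema1a (14 of 39), the leg and ovary factor gene bab1 (11 of 30), and Glut1, Tet and the homeodomain factor gene hth (10 each). Most of the Sema1a regions were in every kind of list, with 12 in the Zld main list, 12 in the Grh main list, 13 in the Twi main list and 12 in the Zld DBD list.

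Other genes with many regions showed the opposite, and only 3 of the 60 genes had none of their regions in the Grh or the Twi main list. They were peb, which encodes the zinc-finger factor Hindsight of the amnioserosa, Dscam1, a neuronal cell recognition gene, and CG32639. At peb, 7 of 20 Zld titration regions were titration-only, 4 of them were in the Zld main list and none was in a main list of the Grh or Zld DBD. The strongest stood 10985 bp from the gene end at chrX:4606473-4606800, with a fold enrichment of 4.03 in the titration and 2.78 in the Zld main list. The next stood at chrX:4613650-4613864, with 3.35 and 2.41. Neither the Grh nor the HA-Twi titration-only set had a region nearest to peb. For Dscam1 these sets had 5 and 2 such regions, and for CG32639 they had 3 and 0.

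The odd-skipped family gene drm, a zinc-finger factor gene of gut and leg development, had 6 Zld titration-only regions, 5 of them in a run of 3086 bp outside genes (chr2L:3553720-3556805). Of the 6, 5 were in the Zld main list, 3 in that of Twi and none in that of Grh or in a main DBD list. The strongest, at chr2L:3555943-3556805, had 5.06 in the titration, 5.57 in the Zld main list and 1.52 in the Twi main list. The next, at chr2L:3555397-3555747, had 3.88, 3.32 and 1.41. At wg, the Wnt ligand gene, 5 regions were counted, 2 in the Zld main list, 2 in that of Twi and none in that of Grh.

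SoxN, a Sox factor gene of the neuroectoderm, had 9 regions, all outside the gene, and differed from peb and drm. Of these, 8 were in the Zld main list, 6 in the Grh main list, 9 in the Twi main list and 7 in each main DBD list. Its strongest, at chr2L:8844793-8845077, had 3.65 in the titration, 3.33 in the Zld main list, 2.11 in the Grh main list and 2.38 in the Twi main list. The T-box gene bi had 8 regions, of which 3 were in the Zld main list, 2 in that of Grh and none in that of Twi. The Iroquois gene caup had 7 (highest fold enrichment 4.19), the homeodomain factor gene ct 6 (2.28), the Slit receptor gene robo2 6 (3.21), its ligand gene sli 5 (2.36), the EGF receptor ligand gene vn 6 (3.19), the Toll family receptor gene Tollo 6 (3.78), the chromatin remodeller gene osa 6 (2.24) and the GATA cofactor gene ush 5 (2.39).

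Genes of the early zygotic list, many of which Zld is known to activate in the embryo, lay nearest to a Zld titration-only region for 15 of 34 (44.1%), against 14.4% of all protein-coding genes. Their median length was 2941 bp. The same share was 35.3% for Grh titration-only regions, against 24.1% of all protein-coding genes, and 14.7% for those of HA-Twi, against 7.41%. Both also stood above their own background, and no test was made. The gap and pair-rule genes hkb (1.73), hb (2.37), eve (2.05), hry (1.36), prd (1.91), opa (2.87), slp1 (2.01) and slp2 (2.28) had highest fold enrichments under 3. The highest values of the list were at dpp, the BMP ligand gene, with 4.56 (chr2L:2461370-2461725, 1687 bp from its end), the cellularization gene slam (3.37) and sna, the mesoderm repressor gene, with 3.19 and 3.15. The sna regions lay outside genes, 11058 and 11470 bp from an end of sna. The dpp region was in all 3 main lists, and the sna regions (chr2L:15465442-15465585 and chr2L:15465046-15465220) in the Zld main list alone, with 2.78 and 2.61. The others were the dorsoventral genes rho (1.91, inside Ptp61F) and brk (1.95, inside CG1677), sisA, an X-linked sex-counting gene (2.07), and the lipid transport gene halo (2.46).

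Hox and Polycomb genes, which pattern the body axis and keep that pattern, stood at 10 of 18 (55.6%), with the highest values at the Hox genes Ubx (4.42, in the Zld and Twi main lists), Antp (3.56) and Scr (3.46) and at the Polycomb gene Psc (3.88). Dfd had 3 regions and lab 4, with highest values of 3.15 and 2.92, while Abd-B, ph-d, Su(z)2 and pho reached 2.47, 2.03, 1.96 and 2.78. Mesoderm and muscle genes stood at 9 of 21 (42.9%): sna, Mef2 (2.46), how (2.55), stumps (2.14), pyr (1.64), if (2.82), Traf4 (1.44), zfh1 (1.62) and sls, the titin-like muscle gene (3.42). Epidermal barrier genes stood at 7 of 20 (35.0%), with baz highest (6.79), then the claudin gene kune (3.01), grh (2.19), crb (2.10), shg (1.92), msn (1.70) and Mmp1 (1.67). Neuronal genes stood at 5 of 15 (33.3%), namely nSyb (3.05), brp (2.78), Dscam1 (3.15), fne (3.15) and Appl (2.60), and germline genes at 2 of 12 (16.7%), AGO3 (2.23) and tud (2.25). For Grh titration-only regions the shares of these lists, in the same order, were 61.1%, 42.9%, 80.0%, 20.0% and 33.3%, against 24.1% of all genes. For HA-Twi titration-only regions they were 0.00%, 28.6%, 20.0%, 20.0% and 25.0%, against 7.41%. Median gene lengths of these lists ranged from 6324 to 32941 bp, above that of all genes, and the part of length in these counts was not tested.

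Genes of stress and metal handling were counted because copper itself is toxic at high doses. Metal handling genes stood at 2 of 19 (10.5%), below the background of 14.4%: the copper pump gene ATP7 (2.87, inside the gene, chrX:11859063-11859141) and the zinc transporter gene ZnT35C (1.64, chr2L:15247681-15247812), both in the Zld main list and in no other main list. MtnA, the copper-inducible metallothionein gene, had 2 Zld titration regions and neither was titration-only. Oxidative stress genes stood at 2 of 16 (12.5%), cnc (2.03 over 2 regions) and Gclc, a glutathione synthesis gene (2.35). The stronger region inside cnc (6.00) was counted at fzo, whose end is nearest, and does not enter the value for cnc. The list does not hold Sod3, whose 2 regions (7.25 and 2.90) would make it 3 genes. Heat shock genes stood at 4 of 19 (21.1%), with stv at 5.01, Hsp70Ab at 3.19 (inside CG3281), Hsp83 at 2.08 over 3 regions and Hsp68 at 1.89 over 2 regions. The Hsp70 genes are near-identical copies, so a region beside one of them is uncertain. Genes of JNK signalling and stress response stood at 10 of 18 (55.6%), with hid, a cell death gene, highest at 4.18 (chr3L:18193139-18193413) and its neighbours grim (1.82, 3 regions more than 10 kb from its end) and rpr (1.55) lower. The others were puc (1.49), kay (1.63), Mmp1, upd3 (1.96), egr (1.94), hep (2.41) and crc (2.37). The shares for Grh titration-only regions were 21.1% (metal handling), 18.8% (oxidative stress), 15.8% (heat shock) and 33.3% (JNK and stress), against 24.1% of all genes. Those for HA-Twi titration-only regions were 0.00%, 12.5%, 5.26% and 16.7%, against 7.41%. Genes of the JNK and stress list had a longer median length than all protein-coding genes. Of these genes, 94.4% were nearest to any Zld titration region, against 63.7% of all. The part of length in their count was not tested.

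Hemocyte genes, which mark the identity of S2 cells, stood at 8 of 22 (36.4%), all at a fold enrichment under 3: srp (2.00), ush (2.39), crq (1.94), Col4a1 (1.79), drpr (2.95), kay, He (2.55) and cher (2.42). The regions with these values lay inside another gene for crq (ex), drpr (Oseg4), He (NimB5) and cher (cal1). For Grh and HA-Twi titration-only regions the shares were 40.9% and 27.3%, against 24.1% and 7.41% of all genes. The hemocyte genes had a median length of 10809 bp against 2161 bp for all genes, and the part of length was not tested. Of the dosage compensation genes, 1 of 6 was counted (msl-3, 1.69, inside form3), against 3 for Grh and 0 for HA-Twi titration-only regions. The values of these lists describe regions and not expression, and none of the 12 lists is called different from the background here.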

How the data were processed

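The 48 ATAC-seq libraries were grouped by the titles in the labels. Per the submitters' processing notes, Bowtie2, MACS2, featureCounts, DESeq2 and deepTools 3.5.1 were used with dm6; settings and any shift of reads for the transposase were not given in the sources used here. Deposited values are the authors': a fold enrichment or ratio to background, the −log10 of the q-value (lowest 1.30) and a score for every peak (the score was not used). Labels tie each main and full-length titration list to several libraries, so the authors pooled them; no library is tied to the DBD titration lists, whose 200 bp windows have no summit (the midpoint was used).

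Rows of 1 region were joined with the strongest summit. Regions were shared at an overlap of at least 1 bp. Gene positions are from RefSeq (Release 6), without strand or exons; the nearest gene is the protein-coding gene (of 13946) with the nearest end. Of 223 list symbols, 7 matched by synonym and 3 were not used. Members and lists were chosen with earlier results of these data known. Genes were named by a rule: nearest to the 20 strongest regions, to 5 or more regions, to the 10 strongest regions in both Zld DBD lists, or in a list; the run genes and the contrasts between lists were picked after their values were seen. Tests were two-sided exact McNemar and Fisher's exact tests with Benjamini-Hochberg adjustment, at 0.05, checked on simulated data. Motif and promoter counts were not run, since no sequence was used here. Software was scipy 1.17.1, pandas 2.3.3 and numpy 2.4.6 under Python 3.11.15, with matplotlib 3.10.9 for plots.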

Additional observations from a re-analysis of the deposited data

How the results depend on the processing

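No paired analysis was possible because each list pools its libraries and holds no value per replicate, and for the same reason no replicate could be left out. Of 131 alternatives over 18 results, 88 kept direction and side of the threshold, or, for the number of regions, stayed within 1.5 times, and 23 changed direction. The higher share in the Zld main than in the Grh main list, and the differences of the Zld main list from both other titration-only sets, passed in every alternative run. The rule favoured these directions in advance. In the rest, values are differences in percentage points, Zld titration-only regions minus the other set, or the first list minus the second; the cause of the changes was not tested.

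With every list cut to a −log10 q of at least 10 and the rule applied again, 1305 regions were chosen. Only 674 of the 3005 regions had such a value, so the others of the 1305 lie outside the 3005. Zld main minus Twi main became 1.92 and Zld DBD minus Grh DBD 0.46. The share in the Zld DBD list against HA-Twi titration-only regions was −2.0. The share inside a gene was −5.35 against Grh and −6.08 against HA-Twi titration-only regions, the share on X 1.73 against Grh titration-only regions and −2.30 against regions of all 3 lists, and the share near a gene end −4.25 against HA-Twi titration-only regions. With equal numbers per list, Zld main minus Twi main became 12.7, Zld DBD minus Grh DBD −1.82 the same for the DBD titrations −2.43, and the share in the Zld DBD list −1.47 (HA-Twi). The share inside a gene was −2.67 (Grh) and −3.67 (HA-Twi), and that near a gene end 3.08 (HA-Twi).

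Strength limits were run, those at 3 and 4 or above chosen after seeing the data. At a fold enrichment of at least 3, Zld main minus Twi main was 18.6 and Zld DBD minus Grh DBD 3.44. Inside a gene the values were −15.2 (Grh), −15.2 (HA-Twi) and −3.51 (all 3 lists), on X 0.396 (all 3 lists) and near a gene end −5.28 (HA-Twi). At 4 or above they were 30.3 and −1.32 for the lists, −1.32 for the DBD titrations, −13.5 (HA-Twi) for the share in the Zld DBD list, −21.9, −19.6 and −9.78 inside a gene, 5.81 (Grh), 1.13 (HA-Twi) and 0.727 (all 3 lists) on X, and −8.25 (Grh) and −10.4 (HA-Twi) near a gene end. Under 3 they were −1.90 (all 3 lists) inside a gene, 0.993 (Grh) and −0.544 (all 3 lists) on X, and −1.56 (all 3 lists) near a gene end. With 200 bp for a gene end, the values were −0.347 (Grh) and −2.94 (HA-Twi). The X share against Grh titration-only regions was 1.58 with an overlap of 50% of the shorter region and 1.67 without zld, grh and twi. The unknown depth per library limits what absence from a list can show.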

Other observations

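Joined at gaps of at most 1000 bp, 2346 Zld titration-only regions (78.1%) stood alone and 659 (21.9%) formed 290 runs, 57 of which held 3 or more. In runs were 76.0% of all 27064 Zld titration regions, 34.0% of the 6262 Grh titration-only and 11.7% of the 1292 HA-Twi titration-only regions. These shares move with the size of the set. Besides the runs at zld and drm, 5 regions each lay within 2877 bp beside Tollo and Prx1 (chr3L:15221244-15224120, highest fold enrichment 3.78), within 1707 bp inside the eye development gene ec (chrX:3854494-3856200, 1.97) and within 2445 bp inside osa (chr3R:17692693-17695137, 2.24). These runs differed in where else they were called. None of the 5 regions at Tollo was in the Grh main list or in a main DBD list, and 1 was in the Twi main list. All 5 at ec were in both the Grh and Twi main lists and 2 in the Zld main list, and the osa run had 5 in the Twi main list and none in the Zld main list. A run of 3 regions beside CG15059 (chrX:18263270-18264958, 6.71) had all 3 in the Zld main list and none in the Grh, Twi or main DBD lists. The runs were chosen after their values were seen.

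Chromosome 4 held 35 Zld titration-only regions (1.16%, 0.813 to 1.62) against 0.988% of regions in all 3 titration lists, and the Y chromosome held 1.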
